A study of Mus musculus with 18 samples.

Results

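The genes described here are Clec9a, Xcr1, Zbtb46, Cd83 and Ccl22, all of which are used elsewhere as marks of dendritic cells. They were chosen by name with earlier results of these data known, so their rises with interferon-gamma are described and test nothing. Every row that compares 2 of the 6 labelled groups and carries one of these names was taken from the authors' deposited table of significant differences. This gave 5 genes of 5455 listed, 6 entries of 7315 and 32 rows of 34824. RNA came from RAW264.7, a mouse macrophage-like line made with Abelson leukaemia virus, with 3 samples in each of 6 groups. Construct cells carry the lentiviral vector pINDUCER20-mCITED1 (p2080 in the labels), from which doxycycline switches on murine CITED1, a transcriptional cofactor with no DNA-binding domain of its own. They were given doxycycline (100 ng/mL) with interferon-gamma (200 U/mL), interferon-gamma without doxycycline, doxycycline without interferon-gamma, or neither. RAW cells without the construct, called parental here, received doxycycline or neither, and no parental group received interferon-gamma. Every construct group carries the vector, doxycycline or not. Whether the construct line is 1 clone, and how long each treatment lasted, is not stated in the labels.

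Conventional dendritic cells take up antigen, mature, and prime T cells. The type 1 subset carries CLEC9A, a C-type lectin that binds the actin exposed by dead cells, and XCR1, the receptor for the chemokine XCL1 of activated T and NK cells. ZBTB46 is a BTB zinc finger repressor of the conventional dendritic cell lineage. CD83 is an immunoglobulin-family membrane protein of mature dendritic cells that keeps MHC class II and CD86 at the surface, and activated macrophages and B cells make it too. CCL22 is a chemokine of mature dendritic cells and of some macrophages that attracts CCR4-bearing T cells. Interferon-gamma acts through JAK kinases and through interferon regulatory factors made in turn.

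The table gives, for each pair of groups, a fold change, the 2 groups' total FPKM (fragments scaled by transcript length and library size) and a q-value. The level of each group was rebuilt from the fold and the total, and is called a rebuilt FPKM. There are no values per sample, so no SD and no depth stand behind a level, and n is the 3 samples of each group. Listed rows have at least a 2-fold difference and a q of 0.05 or less, which is what "called", "rose" and "fell" mean below. A pair with no row may have differed by less, may have failed the q threshold, or may have had a group at 0, and these cannot be told apart. Of 29 rebuilt levels of the 5 genes, 20 could be rebuilt from more than 1 comparison, and the repeats differed by at most 0.756%. In bulk RNA, more cells that express a gene and more RNA in each cell cannot be told apart. Cited1 had rebuilt FPKM of 86.7 with both agents, 11.5 with interferon-gamma, 168 with doxycycline and 0.703 in untreated construct cells.

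By transcript identifier all 6 entries were found in GENCODE M21 (build GRCm38), on 5 different chromosomes. Clec9a is listed as Clec9a-201 (chr6:129408862-129424763, plus strand, 7 exons, 264 codons). Xcr1 is listed as Xcr1-201 (chr9:123852315-123862029, minus strand, 2 exons, 338 codons), the only transcript of that gene there. Zbtb46 is listed as Zbtb46-202 (chr2:181410545-181459426, minus strand, 3 exons, 434 codons), 1 of 5 transcripts. Ccl22 is listed as Ccl22-201 (chr8:94745590-94751699, plus strand, 3 exons, 92 codons). Cd83 has 2 entries, the coding Cd83-201 (chr13:43784775-43803132, plus strand, 5 exons, 196 codons) and the overlapping noncoding Cd83-202 (chr13:43785185-43803128), annotated as a retained intron. Cuffdiff divides reads that the 2 Cd83 entries share between them, so the split between these levels is uncertain.

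The upstream sequences of the 3 genes with the largest interferon-gamma folds are shown for the motifs near their start sites. They come from RefSeq (GRCm38.p6), which matched 4 of the 5 genes by symbol, and they run 5′ to 3′ on the gene's strand up to the base before the start. Clec9a and Xcr1 have 250 bases (chr6:129408612-129408861, plus, and chr9:123862030-123862279, minus), and Ccl22 has the 156 bases (chr8:94745434-94745589, plus) that precede its listed transcript. Capitals mark motif matches.

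Clec9a: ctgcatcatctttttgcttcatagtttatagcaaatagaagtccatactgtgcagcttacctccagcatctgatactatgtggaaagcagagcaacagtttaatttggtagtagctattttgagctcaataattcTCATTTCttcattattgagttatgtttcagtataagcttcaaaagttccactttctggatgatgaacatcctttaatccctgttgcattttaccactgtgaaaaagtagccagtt

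Xcr1: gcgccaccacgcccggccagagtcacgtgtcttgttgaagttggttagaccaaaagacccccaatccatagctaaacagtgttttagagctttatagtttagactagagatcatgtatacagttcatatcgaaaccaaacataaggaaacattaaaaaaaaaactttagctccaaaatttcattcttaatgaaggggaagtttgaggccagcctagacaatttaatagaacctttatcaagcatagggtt

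Ccl22: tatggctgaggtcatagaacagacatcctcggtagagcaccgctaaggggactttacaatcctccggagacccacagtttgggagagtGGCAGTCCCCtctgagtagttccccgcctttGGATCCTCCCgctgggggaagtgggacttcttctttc

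Searched on both strands of the 250 bases upstream of the RefSeq start were 5 motifs. They were GAS (TTCNNNGAA), ISRE (GAAA, any 2 bases, GAAA), the ETS-IRF element (GGAA, any 2 bases, GAAA), the AP-1-IRF element (GAAATGA) and a kappaB motif (GGG, any 5 bases, CC). Clec9a held 1 AP-1-IRF match, read on the opposite strand as TCATTTC from -115 to -109, and 4.64% of 32851 RefSeq promoters hold one. Zbtb46 held the same letters from -57 to -51 of its RefSeq start. That start lies 35038 bases downstream of the start of the listed transcript, so the Zbtb46 sequence is not shown. Ccl22 held 2 kappaB matches, GGCAGTCCCC and GGATCCTCCC, a motif present in 45.8% of promoters. They lie from -162 to -153 and -131 to -122 of its RefSeq start. That start is 94 bases downstream of the start of the listed transcript. The last 94 bases searched therefore lie past the listed start and are not shown. Xcr1 held none of the 5 motifs. No GAS (7.02% of promoters), ISRE (2.98%) or ETS-IRF match (2.30%) was found in the 4 windows. No matches overlapped, and a match or its absence in such a window says nothing of binding.

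Construct cells with interferon-gamma set against untreated construct cells ask how the cytokine changed these genes without doxycycline. Cited1 was itself called in this comparison, 16.33-fold higher with interferon-gamma (q 3.9e-04) in the authors' deposited table, so the comparison is not free of a rise in Cited1. All 5 genes rose, among 25.7% of the 5455 listed genes that rose and 24.5% that fell; how many genes the authors tested is not given. The size differed by orders of magnitude between the genes. Both type 1 dendritic cell receptors and the chemokine rose more than 100-fold out of levels near 0, while Zbtb46 and Cd83 rose 2- to 4-fold.

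Clec9a had a rebuilt FPKM of 80.4 with interferon-gamma, against 0.0437 in untreated construct cells. The authors' deposited table gives a 1840.49-fold rise with a q of 0.0185. Over the 3293 bases of Clec9a-201, the untreated level equals 0.144 fragments per 1000000 sequenced, a very low denominator for the fold. With interferon-gamma Clec9a lay above 95.2% of the entries that have a level in that group, and untreated it lay above 0.292%. Xcr1 had a rebuilt FPKM of 6.61 with interferon-gamma and 0.0430 untreated, a 153.56-fold rise (q 0.00515) in the authors' deposited table. Its untreated level equals 0.192 fragments per 1000000 sequenced. Despite a fold over 100, Xcr1 stood near the middle of the entries with interferon-gamma, above 55.1% of them.

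Zbtb46 stayed a low transcript in every group with a level. Its rebuilt FPKM was 0.575 with interferon-gamma and 0.183 untreated, and the authors' deposited table gives a 3.16-fold rise with a q of 0.0308. Even with interferon-gamma it lay above only 9.04% of entries. Cd83 was the one member already well expressed before treatment. Its coding entry had a rebuilt FPKM of 27.1 with interferon-gamma and 12.4 untreated, a 2.18-fold rise (q 3.9e-04) in the authors' deposited table. The retained-intron entry of Cd83 has no row in this comparison.

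Ccl22 had a rebuilt FPKM of 71.2 with interferon-gamma, against 0.0648 untreated. The authors' deposited table gives a 1099.41-fold rise with a q of 0.0110, and the untreated level equals 0.144 fragments per 1000000 sequenced. By deposited fold Clec9a ranked 2, Ccl22 ranked 3 and Xcr1 ranked 13 of the 1785 rows that rose, whose median was 3.15-fold. Zbtb46, at rank 892, was close to that median, and Cd83, at rank 1546, was below it.

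**Figure D1:**
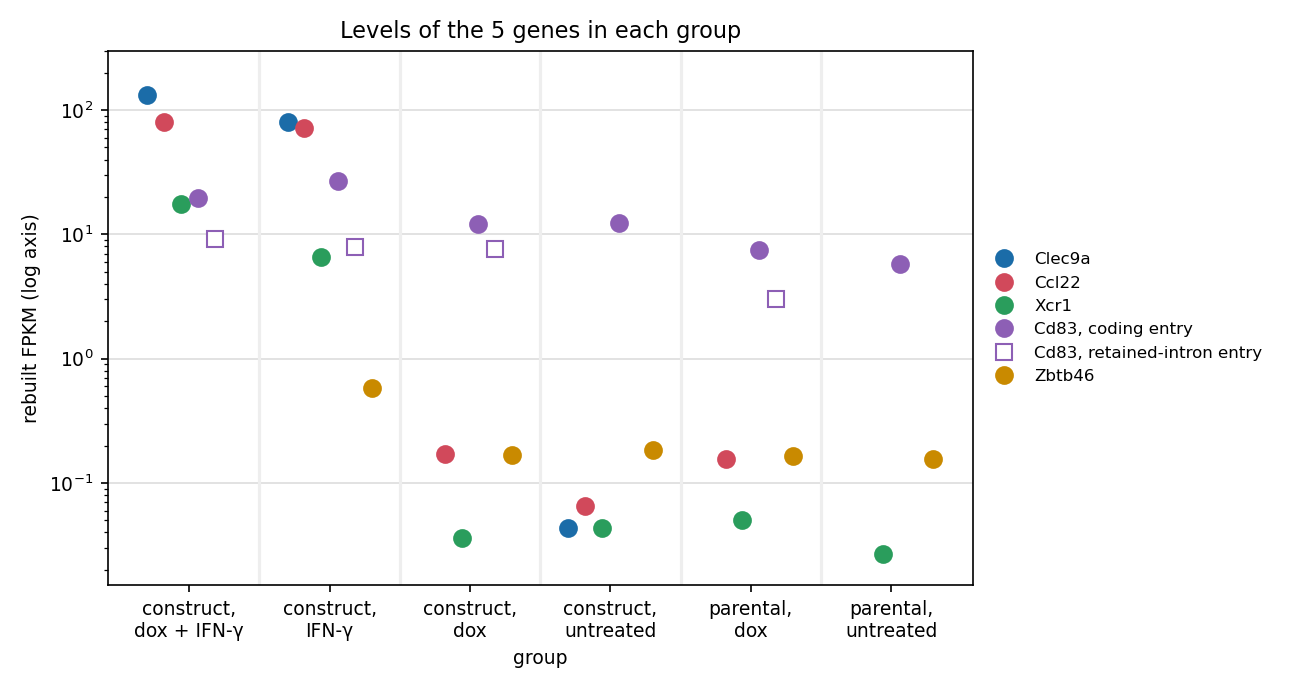
Rebuilt FPKM of the 6 entries of Clec9a, Ccl22, Xcr1, Cd83 and Zbtb46 (log axis) in the 6 groups, 1 point per entry and group, with no point where no level could be rebuilt. Clec9a, Ccl22 and Xcr1 sit above 6 in both interferon-gamma groups and below 0.2 in all others with a level, whereas the coding Cd83 entry lies between 5.81 and 27.1 throughout.

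**Figure D2:**
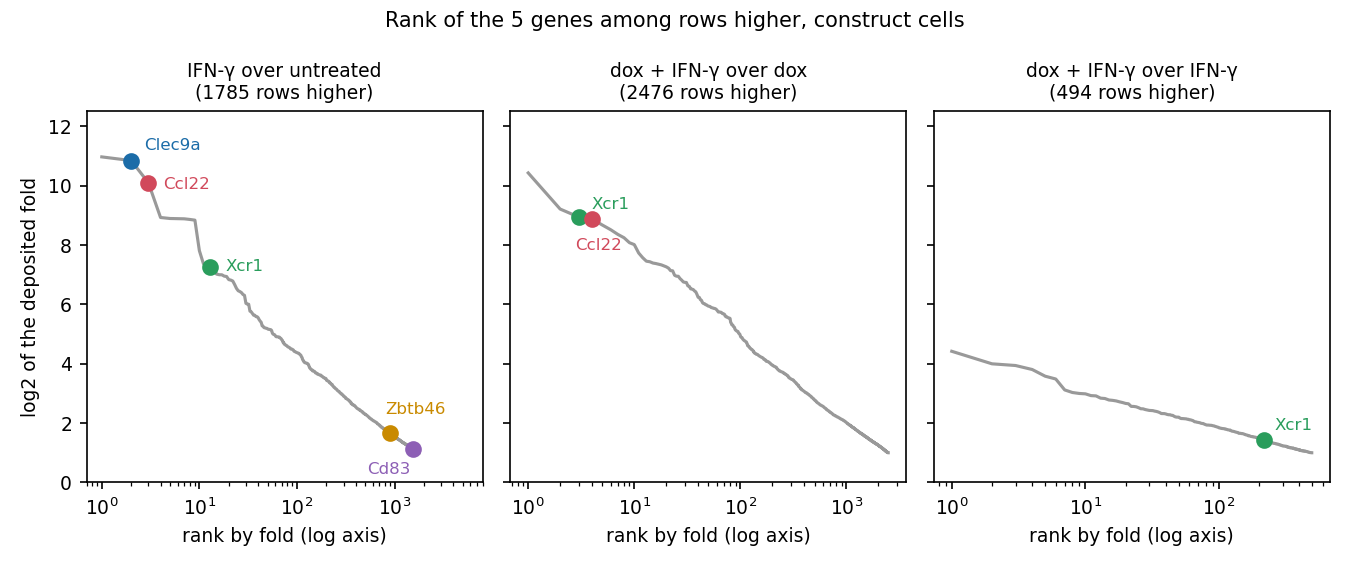
Log2 of the deposited fold against rank (log axis) for every row that was higher in the first-named group, in 3 comparisons of construct cells, with the 5 genes as coloured points. Clec9a and Ccl22 hold ranks 2 and 3 with interferon-gamma alone, and Xcr1 and Ccl22 hold ranks 3 and 4 when doxycycline was present in both groups.

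The size of these calls depends on how libraries are scaled, since the authors' scaling was not known. The median log2 ratio was 0.65 in this comparison, over the 3846 entries with both levels and at least 1 FPKM in either group. Those entries are themselves listed because they changed somewhere. Relative to that median, the log2 ratio was 10.20 for Clec9a, 9.46 for Ccl22, 6.62 for Xcr1, 1.01 for Zbtb46 and 0.48 for Cd83, so all 5 stayed positive and Cd83 was no longer 2-fold. Over all listed genes the share of calls that were rises was 51.3% as deposited and 33.7% after that rescaling. Rescaling could remove listed rises, but falls that would newly reach 2-fold have no row and were not counted. The same limit holds for the rescaled shares given below. Only Xcr1 and Cd83 had a q of 0.01 or less. A low q and a high fold did not go together among the 5: of the 23 rows that rose at least 100-fold, 14 had the smallest q in the table and 3 had a q over 0.01, among them Clec9a and Ccl22.

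The same cytokine in the presence of doxycycline, both agents against doxycycline in construct cells, called 2 of the 5 genes, where 33.7% of listed genes rose and 34% fell. Xcr1 had a rebuilt FPKM of 17.7 with both agents, against 0.0360 with doxycycline. The authors' deposited table gives a 492.19-fold rise (q 0.0126), rank 3 of the 2476 rows that rose. Ccl22 had a rebuilt FPKM of 80.3 with both agents and 0.171 with doxycycline, a 470.54-fold rise (q 3.9e-04) in the authors' deposited table. These folds differed from those without doxycycline, 153.56 for Xcr1 and 1099.41 for Ccl22, and that difference was not tested. The median log2 ratio was 1.02 here, over 4706 entries chosen in the same way. Relative to it Xcr1 stood at 7.93 and Ccl22 at 7.86. The share of calls that were rises was 49.8% as deposited and 28.0% after rescaling.

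The other 3 genes have no row there. Clec9a has a rebuilt FPKM of 132.7 with both agents, from its comparison with untreated construct cells, but no level with doxycycline, where a value of 0 and a failed q threshold cannot be told apart. The coding Cd83 entry had rebuilt FPKM of 19.8 with both agents and 12.2 with doxycycline, a ratio of 1.63, which is under the 2-fold threshold. The retained-intron entry stood at 9.20 with both agents and 7.59 with doxycycline, a ratio of 1.21. Zbtb46 had 0.167 with doxycycline, and no Zbtb46 row involves the group with both agents, so its level there is unknown.

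Both agents against interferon-gamma asks what more CITED1, or doxycycline itself, added to the cytokine. Of the 5 genes 1 was called, where 6.84% of listed genes rose and 6.34% fell. Xcr1 rose 2.68-fold (q 3.9e-04) in the authors' deposited table, with rebuilt FPKM of 17.7 with both agents and 6.61 with interferon-gamma. That is close to the median of the 494 rows that rose (2.535-fold), at rank 217. The median log2 ratio was 0.10, over 3859 entries chosen in the same way, and relative to it Xcr1 stood at 1.32. The share of calls that were rises was 51.9% as deposited and 45.6% after rescaling. Clec9a was at 132.7 with both agents and 80.4 with interferon-gamma, a ratio of 1.65 and no call. Ccl22 was at 80.3 with both agents and 71.2 with interferon-gamma, a ratio of 1.13. The coding Cd83 entry went the other way without a call, at 19.8 with both agents and 27.1 with interferon-gamma, a ratio of 0.731. No parental cells received interferon-gamma, so CITED1 and doxycycline cannot be told apart in this comparison.

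Without interferon-gamma, induction of CITED1 called none of the 5 genes. In doxycycline against no treatment in construct cells 0.202% of listed genes rose and 0.202% fell, so few calls of any kind were listed. The coding Cd83 entry stood at 12.2 with doxycycline and 12.4 untreated, a ratio of 0.979. Zbtb46 stood at 0.167 with doxycycline and 0.183 untreated, and Xcr1 at 0.0360 with doxycycline and 0.0430 untreated. Ccl22 had 0.171 with doxycycline and 0.0648 untreated, a ratio of 2.63 that has no row and lies far below 1 FPKM in both groups. Clec9a has no level with doxycycline, so its ratio is unknown. In parental cells, where doxycycline had no construct to act on, none of the 5 was called either, and 0.11% of listed genes rose and 0.788% fell. There the coding Cd83 entry had 7.50 with doxycycline and 5.81 untreated, Xcr1 had 0.0505 with doxycycline and 0.0270 untreated, and Zbtb46 had 0.165 with doxycycline and 0.155 untreated. Clec9a has no level in parental cells and Ccl22 none in untreated parental cells, so their ratios are unknown.

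Construct cells differed from parental cells in Cd83 before any cytokine. In untreated cells the coding entry had a rebuilt FPKM of 12.4 in construct cells and 5.81 in parental cells. The authors' deposited table gives a 2.14-fold rise (q 3.9e-04), and Cd83 was the 1 called gene of the 5, where 1.72% of listed genes rose and 2.77% fell. With doxycycline in both lines the called entry was the retained-intron one, with 7.59 in construct cells and 3.00 in parental cells. That rise is 2.53-fold in the authors' deposited table, and 2.44% of listed genes rose and 3.17% fell. The coding entry there had 12.2 in construct cells and 7.50 in parental cells, a ratio of 1.62 without a call. Summed over both entries the log2 ratio was 0.91, just under 2-fold. The untreated rise of Cd83 in construct over parental cells was about as large as its rise with interferon-gamma within construct cells, 2.14-fold beside 2.18-fold; both use the untreated construct group.

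Summed over its 2 entries, Cd83 had 29.0 FPKM with both agents, 35.0 with interferon-gamma, 19.7 in construct cells with doxycycline and 10.5 in parental cells with doxycycline. The retained-intron entry held 31.7% of that sum with both agents, 22.6% with interferon-gamma, 38.4% with doxycycline and 28.6% in parental cells with doxycycline. Nearly all of the difference between interferon-gamma and doxycycline in construct cells lay in the coding entry.

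**Figure D3:**
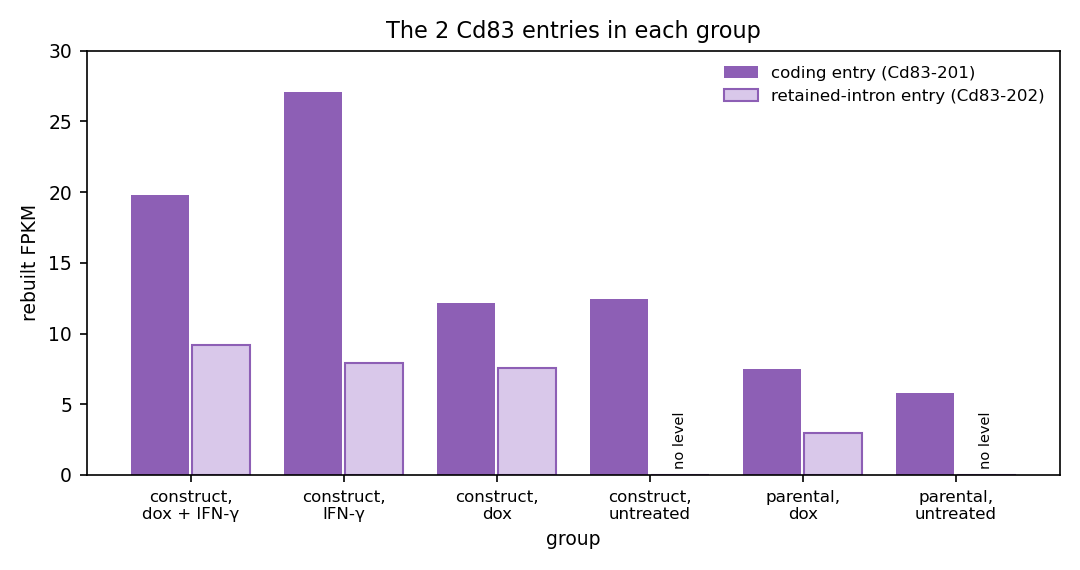
Rebuilt FPKM of the coding and the retained-intron entry of Cd83 in the 6 groups, 1 bar per entry and group with no error available, and "no level" where none could be rebuilt. The coding entry is highest with interferon-gamma (27.1) and lowest in untreated parental cells (5.81), and the retained-intron entry lies between 7.59 and 9.20 in the construct groups that have a level and at 3.00 in parental cells with doxycycline.

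The remaining 8 pairs of groups differ in more than 1 factor and are given as values. All 32 rows of the 5 genes were higher in the first-named group, an order of naming set for this description. Of these rows 29 involve an interferon-gamma group, and the same share over all rows was not counted. Pairs that differ in 1 factor called 22 to 306 genes without interferon-gamma and 719 to 3699 with it, so most calls of any gene involve interferon-gamma there. Construct cells with both agents were higher than untreated construct cells by 3037.37-fold for Clec9a, 1239.82-fold for Ccl22 and 411.29-fold for Xcr1 in the authors' deposited table. Cells with interferon-gamma were higher than parental cells with doxycycline by 460.89-fold for Ccl22, 131.02-fold for Xcr1, 3.61-fold for coding Cd83 and 3.49-fold for Zbtb46 in the authors' deposited table. They were higher than untreated parental cells by 245.1-fold for Xcr1, 4.66-fold for coding Cd83 and 3.71-fold for Zbtb46 in the authors' deposited table. Clec9a has rows in 2 of the 15 pairs, both against untreated construct cells, while Xcr1 has rows in 9, more than any other of the 6 entries. For Clec9a, Ccl22 and Xcr1, all rows with the same low group carried the same q, whatever the high group. For Xcr1 the q was 0.0126 against construct cells with doxycycline, 0.00515 against untreated construct cells, 0.00143 against parental cells with doxycycline and 0.0354 against untreated parental cells.

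**Figure D4:**
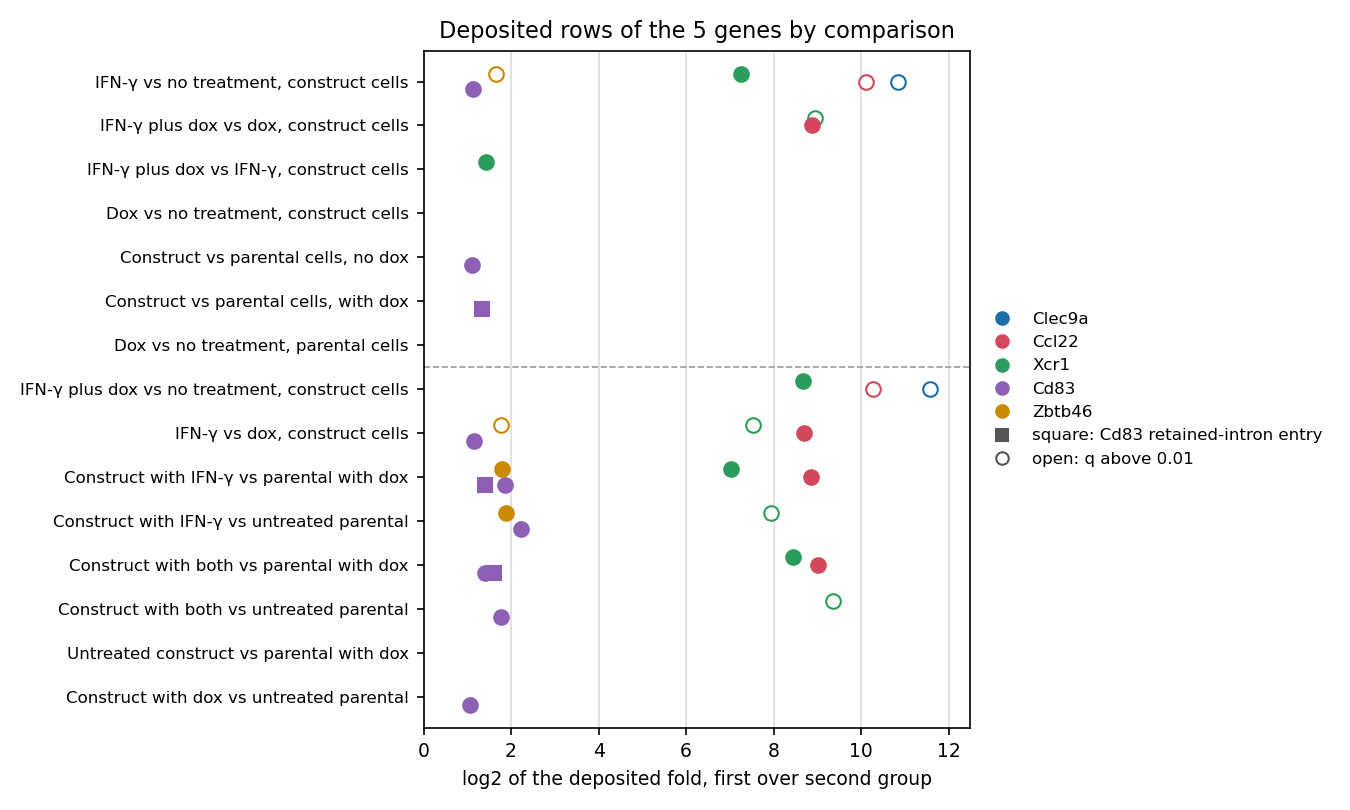
Log2 of the deposited fold (first over second group) for each of the 32 rows of the 5 genes, by comparison; the dashed line parts the 7 pairs that differ in 1 factor from the 8 that do not. Points beyond 7 are Clec9a, Ccl22 and Xcr1 and come only from pairs with an interferon-gamma group on the higher side, and open points have a q above 0.01.

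Across groups the order of levels was similar for the 3 strongly responding genes. Clec9a ran 132.7 with both agents, 80.4 with interferon-gamma and 0.0437 untreated, the 3 groups that have a level. Ccl22 ran 80.3 with both agents, 71.2 with interferon-gamma, 0.171 in construct cells with doxycycline, 0.154 in parental cells with doxycycline and 0.0648 in untreated construct cells. Xcr1 ran 17.7 with both agents, 6.61 with interferon-gamma, 0.0505 in parental cells with doxycycline, 0.0430 in untreated construct cells, 0.0360 in construct cells with doxycycline and 0.0270 in untreated parental cells. Between neighbours in these orders, the steps with a row are those out of the interferon-gamma groups and, for Xcr1, that between both agents and interferon-gamma; none of the 4 low groups was called against another for these genes. For coding Cd83 the order was interferon-gamma, both agents, untreated construct cells, construct cells with doxycycline, parental cells with doxycycline and untreated parental cells, and no neighbours in it were called.

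The genes most like each member were found by the root mean square difference of centred log2 levels over the groups in which the member has a level. Candidates were other named genes with a level in all these groups and at least 1 FPKM in any of them. Genes with only a predicted-gene or clone name were left out. For Xcr1, over 6 groups, they were Cfb (0.36), Ifi209 (0.47) and Socs1 (0.56). For Ccl22, over 5 groups, they were Socs1 (0.42), Slamf8 (0.72) and Cfb (0.73). For Clec9a, over 3 groups, they were Ccl22 itself (0.53), Slamf8 (0.91) and Batf2 (0.93). Zbtb46, over 5 groups, followed B3gnt3, C1ra and Suco within 0.06, and coding Cd83, over 6 groups, followed Tbc1d14 (0.14), Tubb4a (0.15) and Thra (0.19). Cfb encodes a complement factor and Socs1 a feedback inhibitor of JAK kinases.

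Other genes of dendritic cells were counted over 4 lists of 86 genes, of which 28 are listed in any comparison. These lists too were chosen with earlier results of these data known, so their counts are descriptive. With interferon-gamma against no treatment 17 of these 28 rose and 0 fell by the authors' Cuffdiff calls, where 25.7% of all listed genes rose and 24.5% fell. The median log2 ratio was 3.05 over the 17 and 1.54 over all listed genes that rose. In the mature migratory list 10 of 12 listed genes rose. Cd274, which encodes the checkpoint ligand PD-L1, had 203 FPKM with interferon-gamma and 1.78 untreated, and the costimulatory receptor gene Cd40 had 81.3 with interferon-gamma and 1.26 untreated. Serpinb6b rose 29.17-fold and Il15, a cytokine for T and NK cells, 13.86-fold in the authors' deposited table. In the pan-conventional list 3 of 6 listed genes rose: Itgax, which encodes CD11c, had 24.2 with interferon-gamma and 2.04 untreated, H2-DMb2 had 10.5 with interferon-gamma and 0.287 untreated, and Relb rose 2.49-fold in the authors' deposited table. In the type 1 list 2 of 6 rose, Naaa (8.27-fold) and Id2 (2.75-fold in the authors' deposited table), and in the type 2 list 2 of 4, Notch2 (3.08-fold) and Ltb (2.88-fold).

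Batf3, Irf8, Flt3, Kit, Dpp4, Irf4, Ccr7, Ccl17, Fscn1 and Lamp3, which define or drive dendritic cell subsets or their maturation, have no row in any pair. Without a row, a steady level and a level of 0 cannot be told apart. Of 22 transcription factors of the lineage 13 are listed, of which 9 rose and 2 fell, and 50.4% of all listed genes were called in this comparison. The median log2 ratio was 1.59 over the 9 and 1.54 over all listed genes that rose. Batf2, an AP-1 family member, had 153 FPKM with interferon-gamma and 0.334 untreated. Stat3 rose 5.21-fold, Bcl6 4.31-fold, Irf2 3.01-fold and Nfil3 2.18-fold in the authors' deposited table, and Tcf4, Notch2, Id2 and Relb also rose. Relative to the median log2 ratio of 0.65 in this comparison, only Batf2, Stat3 and Bcl6 of the 9 stayed at least 2-fold. Klf4 fell 3.29-fold and Zeb2 2.6-fold in the authors' deposited table. The 15 symbols of receptor and ligand partners of the 5 genes include Xcl1 and Ccr4, and give Marchf1 and Marchf8 under an older symbol as well. Of the 15 symbols 3 are listed and 0 were called.

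Some markers of other cell types were also called with interferon-gamma against no treatment, in both directions, where 25.7% of all listed genes rose and 24.5% fell. Their part in these results was not tested. Of 13 plasmacytoid dendritic cell markers 5 are listed; Irf7, Bst2, Tcf4 and Pacsin1 rose and Runx2 fell, while Siglech has no row. The 3 plasmacytoid entries with a level in all 4 construct groups summed to 982 FPKM with both agents, 486 with interferon-gamma, 185 with doxycycline and 172 untreated. Bst2 alone gave 971, 476, 180 and 167 of these sums, in the same order. Of 21 macrophage identity markers 10 are listed; Fcgr1 rose 6.21-fold, and Cx3cr1 fell 36.3-fold and Trem2 12.52-fold in the authors' deposited table. The 7 macrophage entries with a level in all 4 construct groups summed to 292 FPKM with both agents, 119.9 with interferon-gamma, 401 with doxycycline and 416 untreated. The Fcgr1 entry among them gave 274, 87.5, 15.5 and 14.1 of these sums, in the same order. The higher sum with both agents than with interferon-gamma is therefore mainly Fcgr1. The T cell marker Lck, the 1 listed of 7, had 2.61 with interferon-gamma and 0.695 untreated, and the neutrophil marker Csf3r, the 1 listed of 7, had 1.23 with interferon-gamma and 3.75 untreated. None of 5 B cell markers has a row, and Klrk1, the 1 listed of 5 NK cell markers, was not called here. Cd3e, Ncr1 and S100a8, defining markers of T cells, NK cells and neutrophils, have no row.

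**Figure D5:**
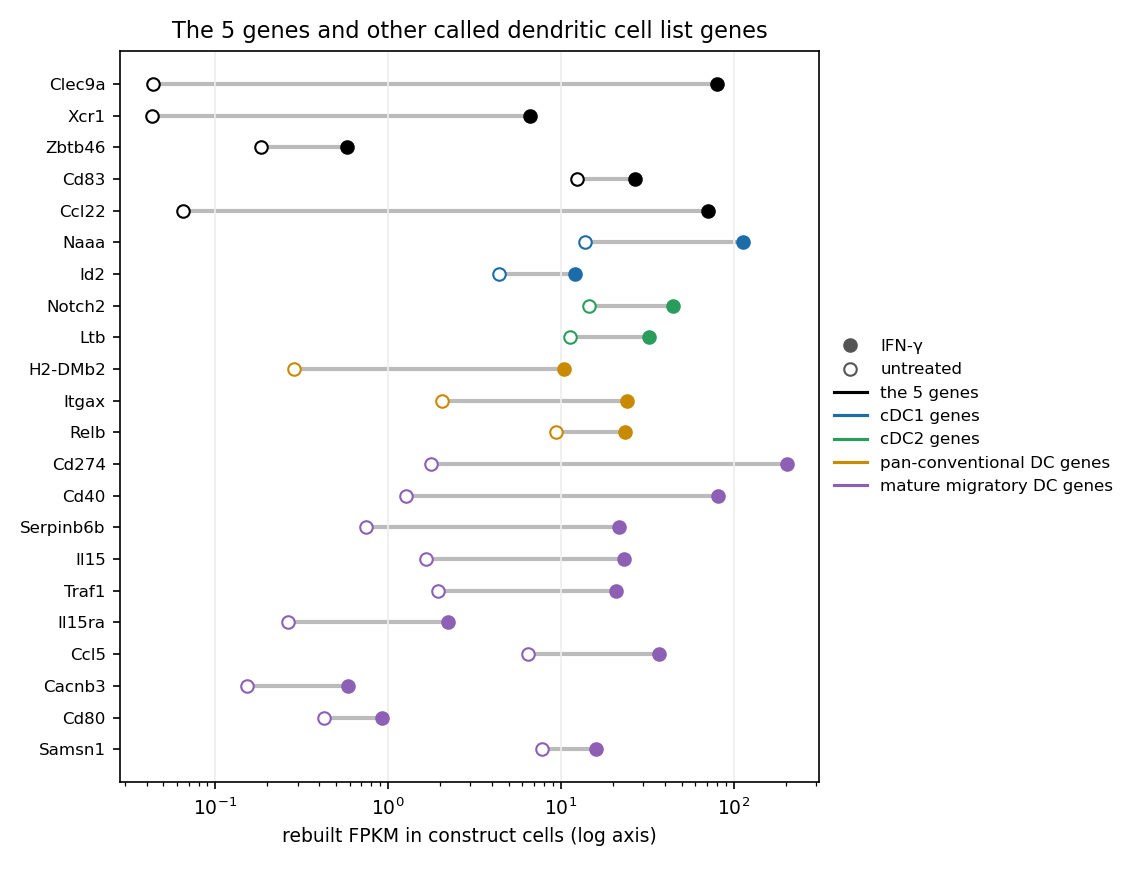
Rebuilt FPKM (log axis) with interferon-gamma (filled) and untreated (open) in construct cells for the 5 genes, in black, and for the 17 other dendritic cell list genes called in that comparison, coloured by list. Clec9a, Xcr1 and Ccl22 start below 0.1 untreated, lower than any of the 17 list genes, and Clec9a and Ccl22 end among the higher ones.

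With both agents against doxycycline, 17 of the 28 listed dendritic cell list genes rose and 1 fell, where 33.7% of all listed genes rose and 34% fell. The median log2 ratio was 3.47 over the 17 and 1.66 over all listed genes that rose. Cd40 had 210 FPKM with both agents and 1.27 with doxycycline, and Cd274 had 233 with both agents and 2.00 with doxycycline. Tlr3, a receptor for double-stranded RNA that type 1 dendritic cells carry, rose 16.42-fold and Itgax 15.72-fold in the authors' deposited table. S100a4 fell, with 745 with both agents and 2853 with doxycycline. Of the 13 listed transcription factors 9 rose, among them Stat3 (6.77-fold), Bcl6 (5.69-fold), Tcf4 (3.36-fold), Irf2 (3.14-fold), Nfil3 (2.84-fold), Notch2, Relb, Ikzf1 and Spi1, all in the authors' deposited table, where Zeb2 had called entries going either way. Relative to the median log2 ratio of 1.02 in this comparison, only Stat3, Bcl6 and Notch2 of the 9 stayed at least 2-fold. The log2 ratios of Ikzf1 (1.02) and Spi1 (1.21) were close to that median. Of the partners Vav1 rose 2-fold and Syk, a kinase downstream of CLEC9A, fell 2.98-fold in the authors' deposited table. Relative to the same median Vav1 was slightly lower. Macrophage markers split into 3 that rose (Fcgr1, Spi1, Siglec1) and 5 that fell (Cx3cr1, Trem2, Adgre1, Cd68, Itgam). The log2 ratio of Siglec1 (1.08) was also close to the median. Of plasmacytoid markers 2 rose (Bst2, Tcf4) and Runx2 fell, Lck rose, Csf3r fell, and no B or NK cell marker was called; the part of these in the rises of Xcr1 and Ccl22 was not tested.

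With both agents against interferon-gamma, where Xcr1 was the 1 called member, 7 of the 28 listed list genes rose and 1 fell, where 6.84% of all listed genes rose and 6.34% fell. The median log2 ratio of the 7 was 1.28, close to the 1.30 over all listed genes that rose. Cd86, the costimulatory ligand, had 55.7 FPKM with both agents and 20.9 with interferon-gamma. Tlr3 rose 3.15-fold, Cd40 2.59-fold, Itgax 2.42-fold, Il15 2.33-fold, Traf1 2.17-fold and Rab7b 2.12-fold in the authors' deposited table. The gene that fell was Ciita, the master activator of MHC class II genes, by a single listed entry. That entry had 1.14 with both agents and 2.88 with interferon-gamma (q 0.0154 in the authors' deposited table). The call was lost at a q of 0.01 or less. A minor entry of Batf2 also rose, 2.36-fold in the authors' deposited table, and was the 1 transcription factor called. Beside Xcr1, the macrophage markers Fcgr1 (3.13-fold) and Siglec1 (2.37-fold) rose and Trem2, C1qc and C1qb fell in the authors' deposited table, and the NK cell marker Klrk1 had 66.3 with both agents and 33.0 with interferon-gamma. The plasmacytoid markers Bst2 and Pacsin1 rose as well, no T cell, B cell or neutrophil marker was called, and the part of these in the rise of Xcr1 was not tested.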

How the data were processed

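RNA of 18 samples in 6 groups was sequenced, per the labels. Cuffdiff 2.2.1, edgeR, featureCounts, STAR 2.5.3a and FastQC 0.11.5 appear in the submitters' processing notes, with no role given. Their build and annotation were not given in the sources used here. Per row, the authors' deposited table holds, per the file headers, a linear fold ratio, a total FPKM and a q-value (an adjusted p-value) for each pair of groups. Of 112230 rows, 77406 name a group outside the 6 and were not used. The smallest fold was 2, the largest q 0.0499, the smallest q 3.9e-04 (71.8% of rows).

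The lower level was computed as total / (1 + fold) and the higher as that times the fold, then the median over comparisons was taken (pandas 2.3.3, Python 3.11.15); absolute levels rest on reading the total as a sum. The rebuilding was also run on simulated totals made as sums, so that run cannot check this reading. Errors of its levels were taken only for entries of at least 1 FPKM, which leaves out levels as low as those near 0 here. Gene names joined to assembly identifiers were reduced to the symbol, and 291 entries with no name or several were not counted as genes. A gene was called in a direction where all its called entries share it. The design assumed limma if values per sample were found; there are none, so no test of its own was run and every call is the authors'. Depth per sample is unknown. Samples of a group may be technical repeats, since the labels do not say. The members and the 12 gene lists were chosen with earlier results of these data known. Named by rule were all members, up to 4 called list genes by fold with at least 1 FPKM, all called transcription factors and partners, and the 3 genes most like each member; other genes were named after their values were seen. Alternatives were a q of 0.01 or less, at least 1 FPKM, a pseudocount of 1 FPKM with at least 1.5-fold, rescaling to a median log2 ratio of 0, and summing entries.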

Additional observations from a re-analysis of the deposited data

How the results depend on the processing

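At a q of 0.01 or less, interferon-gamma against no treatment called 2 of the 5 genes (Cd83 and Xcr1), and both agents against doxycycline called 1 (Ccl22). Summing the Cd83 entries left 0 called in construct against parental cells with doxycycline, since the sum was under 2-fold. Counts of called members stayed within 1.5 times the stated ones under every other alternative run. Among single genes, Zbtb46 was lost at a minimum of 1 FPKM and with the pseudocount (log2 0.42), and Cd83 after rescaling. For the dendritic cell lists the rises ranged from 12 to 17 with interferon-gamma, from 14 to 17 with both agents against doxycycline and from 6 to 7 with both agents against interferon-gamma. No direction of a member reversed on rescaling or on summing entries, and the other alternatives cannot change the sign of a ratio. Rises outnumbered falls among the dendritic cell list genes under each alternative run for them. No paired analysis was possible because the table has no values per sample; for the same reason leaving out each sample was not run. Levels near 0 in the low groups limit the folds of Clec9a, Ccl22 and Xcr1, and their depth is unknown.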
